A study of Mus musculus with 4 samples.

Results

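The interactions described here are H3K27ac HiChIP contacts with at least 1 anchor at the mouse loci of Lhx6, Satb1 and Maf, 3 transcription factors known from interneurons born in the medial ganglionic eminence. A contact was taken as a member when either of its anchors overlapped, by 1 bp or more, chr2:35880000-36020000 (Lhx6), chr17:51820000-52030000 (Satb1) or chr8:118150000-118290000 (Maf) of build mm9. This gave 44 of the 15011 interactions of both lists, 31 of 8278 in the list of somatostatin (SST) interneurons and 13 of 6733 in that of vasoactive intestinal peptide (VIP) interneurons. By locus the members were 13 SST and 0 VIP interactions at Lhx6, 0 and 0 at Satb1, and 18 SST and 13 VIP interactions at Maf. HiChIP joins pieces of chromatin that lie close together in the nucleus and keeps those that carry a chosen mark, here acetylation of histone H3 lysine 27, found at active promoters and enhancers. The SST nuclei came from mice of genotype Sst-cre; Sun1 and the VIP nuclei from mice of genotype Vip-cre; Sun1, both adult, from cortex and on a C57BL/6 background. In both, a Cre driver switches on a tagged Sun1 nuclear envelope protein, so a nucleus was captured by the history of its driver and not by the genes it expressed when taken. Each cell type has 2 samples in the labels, and 1 list per cell type was analysed, attached to replicate 1. Whether it also holds reads of replicate 2 is not known here, and there was therefore no spread between replicates and no test. The files hold anchor positions alone and no expression, so the cell types were not checked against marker genes, and read depth is unknown.

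As background, cortical SST interneurons arise in the medial ganglionic eminence of the embryonic mouse forebrain, whereas VIP interneurons arise in the caudal one. Lhx6 is a LIM-homeodomain factor that is switched on as cells leave the medial eminence and is needed for their migration and for the making of SST cells. Satb1 is a chromatin-binding factor that acts after Lhx6 in the maturation of SST cells. Maf (c-Maf) is a basic leucine zipper factor that takes part in the balance between SST and parvalbumin interneurons.

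The start sites of Lhx6 are shown because its locus was the one with listed contacts in 1 cell type only. The sequences run from 250 bases before to 50 after each start and are from RefSeq, build GRCm38.p6, minus strand, at chr2:36105359-36105658 (start 1), chr2:36104484-36104783 (start 2) and chr2:36104011-36104310 (start 3). That build differs from that of the anchors, so the starts were not placed relative to them. Of the genes, Lhx6 had 3 entries in the table of promoters, Satb1 had 5 and Maf had 0. Capitals mark matches to TGACTCA or its complement TGAGTCA, the AP-1 motif, which also forms the core of a Maf recognition element.
Lhx6 start 1: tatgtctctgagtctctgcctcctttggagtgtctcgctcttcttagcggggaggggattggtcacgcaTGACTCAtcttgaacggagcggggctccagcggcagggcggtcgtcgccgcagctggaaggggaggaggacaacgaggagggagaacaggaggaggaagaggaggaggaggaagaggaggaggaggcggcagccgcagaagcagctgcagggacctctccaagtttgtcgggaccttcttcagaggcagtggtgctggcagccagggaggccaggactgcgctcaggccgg
Lhx6 start 2: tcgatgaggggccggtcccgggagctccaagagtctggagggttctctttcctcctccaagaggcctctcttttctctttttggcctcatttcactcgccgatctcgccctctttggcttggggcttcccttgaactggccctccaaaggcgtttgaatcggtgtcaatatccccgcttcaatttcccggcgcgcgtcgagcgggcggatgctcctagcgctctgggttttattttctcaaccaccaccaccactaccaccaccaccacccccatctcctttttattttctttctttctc
Lhx6 start 3: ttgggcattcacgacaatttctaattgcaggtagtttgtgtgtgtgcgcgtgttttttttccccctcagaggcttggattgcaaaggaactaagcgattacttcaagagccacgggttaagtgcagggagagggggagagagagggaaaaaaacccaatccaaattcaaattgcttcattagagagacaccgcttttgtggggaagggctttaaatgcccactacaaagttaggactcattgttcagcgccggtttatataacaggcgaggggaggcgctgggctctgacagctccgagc
Start 1 held 1 match to TGACTCA, and its GC content was 63.3%. Starts 2 and 3 held no match, and none of the 3 held the homeodomain motif TAATTA. Both strands were searched, the motifs do not overlap one another, and they were chosen after earlier results at these loci were known. Among all 32851 promoters of the table, 5.2% held TGACTCA and 5.29% held TAATTA, so such matches are found by letters in many promoters and are no evidence of binding.

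At the Lhx6 locus contacts were listed in SST and not in VIP. The window held 13 SST interactions (exact 95% Poisson interval 6.92 to 22.2) and 0 of the 6733 VIP interactions (0 to 3.69). A floor of 3 counts, used in place of 0, is 0.446 per 1000 in VIP. SST had 1.57 interactions per 1000 of its list, 3.52-fold higher than VIP when VIP is set to 3 counts in its list. This takes the SST count as exact. Over the interval of that count, with VIP still held at 3, the fold ran from 1.88 to 6.03. That range leaves out the uncertainty of the VIP count and does not bound the difference. With the window widened by 50 kb on each side the fold was 6.24 (23 SST and 0 VIP interactions). When both anchors had to overlap the window it was 1.36 (5 and 0). Interactions share anchors, so this and all other intervals cover counting error only. A difference of this kind was not rare in the genome. Of 997 consecutive windows of 140 kb with 10 or more interactions over both lists, 36.9% were at least 2-fold higher in SST by the same floor and 18.4% held SST interactions alone. Windows with 13 or more SST interactions and none in VIP numbered 118, all of them among those 997. They made up 0.633% of all 18628 windows, of which 14575 held no interaction in either list. Neighbouring windows can share interactions.

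Most SST members at Lhx6 met at the busiest anchor in the window, although an anchor just outside the window had more interactions. The window contained 6 SST anchors that covered 67.0 kb, or 47.9%, of its 140 kb, and the 13 interactions joined 10 anchors between 35831824 and 36092048, a span of 260 kb. The busiest anchor in the window, chr2:35931672-35964005, was 32.3 kb wide and took part in 9 of the 13 interactions, or 69.2% (exact binomial interval 38.6 to 90.9%). In the whole SST list 5.58% of anchors had as many interactions or more, and the median anchor was 11.8 kb wide with 2 interactions. Its partners lay on both sides, 4 toward lower and 5 toward higher coordinates. On the lower side they were at distances of 25.1, 45.8, 70.2 and 96.2 kb between midpoints. On the higher side they were at 25.5, 44.7, 89.7, 115 and 140 kb. The nearest partner on each side was thus about equally far, and the farthest partner on the higher side lay farther out. The remaining 4 members did not touch this anchor. Of these, 2 linked the anchor at 35831824 to 35871480 with those at 35873859 to 35881326 (25.9 kb) and 35893313 to 35910733 (50.4 kb). The other 2 linked those same anchors, within the window, with the anchor at 36050804 to 36073960 (185 and 160 kb).

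The other anchors inside the Lhx6 window had few contacts. Those at 35873859 to 35881326 and at 35893313 to 35910733 took part in 3 each. The anchors at 35920654 to 35924767, 35970260 to 35976388 and 35989667 to 35995387 took part in 1 each, in every case with the busiest anchor. Both anchors lay in the window for 5 of the 13 interactions. At the lower edge, the anchor at 35873859 reached into the window by 1.33 kb and counted as inside, while the anchor at 35831824 to 35871480 ended 8.52 kb before it. That outer anchor was the most connected of the neighbourhood, with 11 SST interactions, of which 3 were members. When anchors within 5 kb were merged, it joined the anchor at 35873859 and so came inside the window. By that setting the window held 17 SST interactions. At the higher edge the nearest anchor outside, 36032128 to 36042929, lay 12.1 kb away. A further 4 SST interactions passed over the whole window without an anchor in it. Among the 45 possible pairs of the 10 anchors, 17 were linked, the 13 members and 4 others.

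None of the 10 anchors of the Lhx6 members overlapped an anchor of the VIP list. For the anchors inside the window this follows from the VIP count of 0, and the anchors outside it lay in a longer stretch without VIP anchors. A missing overlap was also common, as 63.1% of all 5842 SST anchors overlapped no VIP anchor. The VIP anchor nearest on the lower side, 35572786 to 35580800, ended 299 kb before the window. The nearest on the higher side began at 43824674. The stretch without a VIP anchor was 8.24 Mb long, and 56 of the 4830 gaps between neighbouring VIP anchors, or 1.16%, were as long. This is a share of gaps and not of the genome. Long gaps take up more of the genome, so the share of positions in such gaps is higher. SST had 24 interactions with an anchor in the 8.24 Mb stretch, of which 13 were the members. Within 1 Mb of the window SST had 10 further interactions and VIP had 1, between 35514622 and 35580800. In RefSeq (GRCm38.p6) the protein-coding genes next to Lhx6 are Morn5 and Rbm18; anchors were not assigned to genes.

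**Figure D1:**
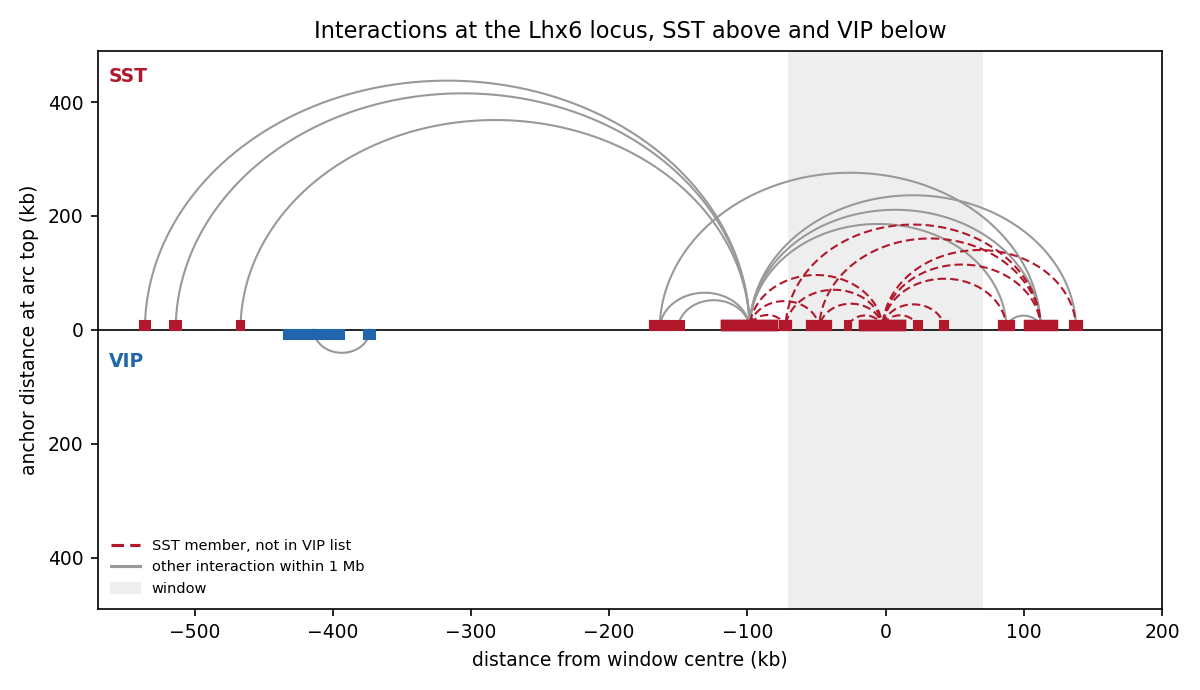
Arcs join the midpoints of linked anchors (boxes) around the Lhx6 window (grey band), by distance from its centre in kb, with the height scaled to the anchor distance in kb; SST lies above the line and VIP below. Red arcs are the 13 SST members, which meet mostly at an anchor near the centre; VIP has 0 members, and its single nearby interaction lies to the left.

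At the Satb1 locus neither list held a contact. No anchor of SST or of VIP overlapped the 210 kb window. The floor of 3 counts, used in place of 0, is 0.362 per 1000 in SST and 0.446 per 1000 in VIP. The exact Poisson interval of 0 interactions reached somewhat higher, to 3.69 counts in each list. No fold is given, as both lists were at 0. Such emptiness was the common state of the genome, since 73.9% of 12421 consecutive windows of 210 kb held no interaction in either list. The nearest SST anchors were at 51670065 to 51691539, 128 kb before the window, and at 52594779 to 52604164, 565 kb after it. These 2 anchors were linked with each other, over 919 kb, so that 1 SST interaction passed over the Satb1 window without touching it. It was the only interaction of either list within 1 Mb of the window. VIP had no anchor between 50040494 and 56145963, a stretch of 6.11 Mb, and 1.95% of the gaps between neighbouring VIP anchors were as long. As at Lhx6, this is a share of gaps, and the share of positions in such gaps is higher. The genes next to Satb1 in RefSeq (GRCm38.p6) are Tbc1d5 and Kcnh8.

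The Maf locus had contacts in both cell types. The window held 18 SST interactions (Poisson interval 10.7 to 28.4) and 13 VIP interactions (6.92 to 22.2), or 2.17 and 1.93 per 1000 of each list. The ratio of SST to VIP was 1.13, with an exact interval of 0.522 to 2.50 that includes equal numbers per list but also differences in either direction. Among the 997 windows of 140 kb named above, 36.9% were at least 2-fold higher in SST and 32.3% at least 2-fold higher in VIP, and Maf was neither.

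**Figure D2:**
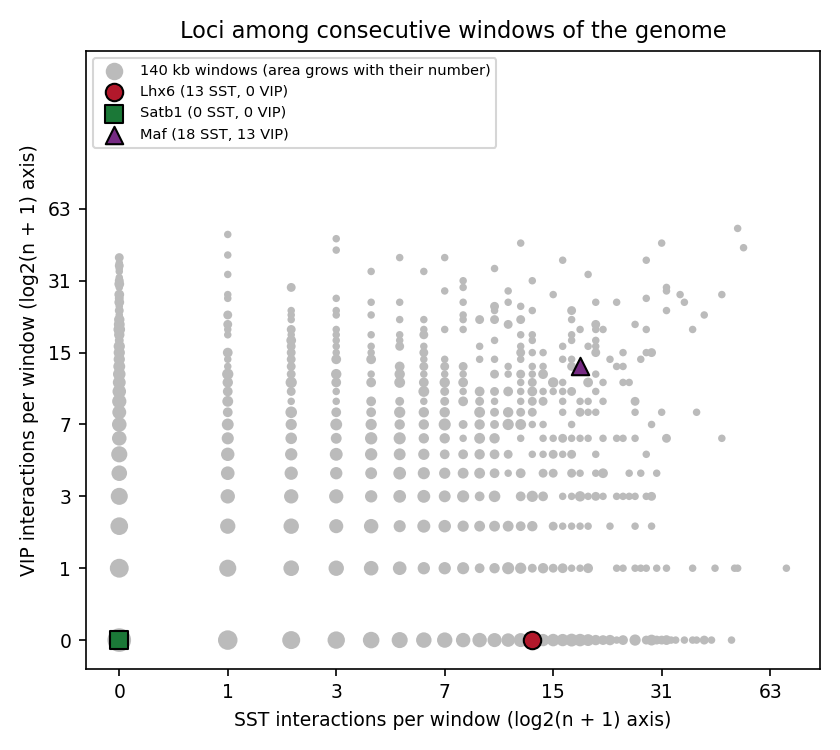
Each grey point is a combination of SST (x axis) and VIP (y axis) interactions per 140 kb window, both on a log2(n + 1) axis, and its area grows with the logarithm of the number of windows. Lhx6 (13 SST, 0 VIP) lies on the lower axis, Satb1 (0 and 0, window of 210 kb) at the corner and Maf (18 SST, 13 VIP) among windows rich in both.

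In both cell types the busiest anchor of the Maf window was broad and lay at the same position. In SST this was chr8:118200268-118242861, 42.6 kb wide, with 15 of the 18 interactions (83.3%, interval 58.6 to 96.4%). In VIP it was chr8:118200706-118234292, 33.6 kb wide, with 13 of 13. It was the only VIP anchor in the window, so by the rule for members every VIP member had to run through it. SST had 2 anchors in the window, so its share was also shaped by that rule. The VIP anchor lay wholly inside the busiest SST anchor and covered 78.9% of it. As many interactions or more were found at 1.42% of all SST anchors and 1.92% of all VIP anchors. SST had a second anchor in the window, 118264479 to 118280851, with 4 interactions and no overlapping VIP anchor. Of its links, 1 was to the main anchor, 1 to the anchor at 117894508 to 117914482, and 2 to anchors beyond the window at 118630057 and 118706548. Together the SST anchors covered 42.1% of the window and the VIP anchor covered 24.0%. When anchors within 5 kb were merged, the main anchor had 13 interactions in SST and 8 in VIP, so the VIP number depends on how neighbouring anchors were divided.

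The partners of the Maf anchor were placed differently in the lists. In SST 7 partners lay toward lower coordinates and 8 toward higher ones. In VIP 12 lay toward lower coordinates and 1 toward higher ones. The share on the higher side was 53.3% in SST (26.6 to 78.7%) and 7.69% in VIP (0.195 to 36.0%), and these intervals, which treat links of 1 anchor as independent, overlap. With anchors within 5 kb merged, the counts were 6 lower and 7 higher in SST and 7 lower and 1 higher in VIP. This split by side was looked at because of the pattern and is a description. In RefSeq (GRCm38.p6) Wwox is the neighbour of Maf on the lower side and Dynlrb2 that on the higher side, and no partner was assigned to either.

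On the higher side SST listed a group of anchors that VIP did not. Beyond the window these were at 118618513 to 118623035, 118630057 to 118650379, 118666051 to 118670265, 118696892 to 118705638 and 118706548 to 118721815, at distances of 399, 419, 447, 480 and 493 kb from the Maf anchor. A further one lay at 118815960 to 118824840 (599 kb). No VIP anchor overlapped any of these 6, and the nearest one lay 80.0 to 282 kb away. A missing overlap was common in itself, as 63.1% of all 5842 SST anchors overlapped no VIP anchor. The farthest anchor on this side was listed in both. It was at 118905838 to 118911297 in SST, 687 kb away, and at 118904884 to 118911297 in VIP, 691 kb away. Of the 7 SST anchors within 1 Mb beyond the window on this side, all linked to the window, and VIP had 1 anchor there.

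The lower side held anchors of both lists, more of them in VIP. SST partners began at 117337869 to 117345413, 880 kb away, the longest member of all and without a VIP anchor. VIP partners began at 117653159 to 117660794, 561 kb away and without an SST anchor. The lists overlapped at 5 SST and 4 VIP partners on this side, since the 42.3 kb VIP anchor at 117877422 to 117919679 met 2 SST anchors. By the 1 bp rule VIP alone listed, beside the first, the partners at 117693791, 117749754, 117762593, 117950081, 118058549, 118067008 and 118131109. Their distances were 521, 466, 453, 258, 156, 144 and 79.3 kb. The last of these ended 4.8 kb before the window. By the same rule SST alone listed, beside its first, the partner at 118082903 to 118095714, at 132 kb. These calls depend on the rule, since 4 of the 8 VIP partners and this SST partner lay within 10 kb of an anchor of the other list. In the whole SST list 63.1% of anchors overlapped no VIP anchor by the 1 bp rule. The matching share of the VIP list was not computed, so these VIP partners have no background. The VIP partners without an overlap were 0.641 to 35.4 kb from the nearest SST anchor, and the SST partner was 3.03 kb from the VIP anchor at 118067008 to 118079869.

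VIP contacts near Maf also joined the partners to each other. Among the 14 VIP anchors there were 24 linked pairs, the 13 members and 11 links among lower-side partners that did not reach the window. The VIP anchor at 117877422 to 117919679 took part in 7 interactions and that at 117924405 to 117945891 in 6, of which 1 each was with the Maf anchor. Among the 16 SST anchors there were 18 linked pairs, all of them members, and SST had 0 other interactions within 1 Mb of the window. The overlapping SST anchors had few links, with 1 at 117875066 to 117890377, 2 at 117894508 to 117914482 and 1 at 117931264 to 117945891. Linked pairs were 17.1% of 105 pairs within 1 Mb in SST and 28.6% of 84 in VIP.

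**Figure D3:**
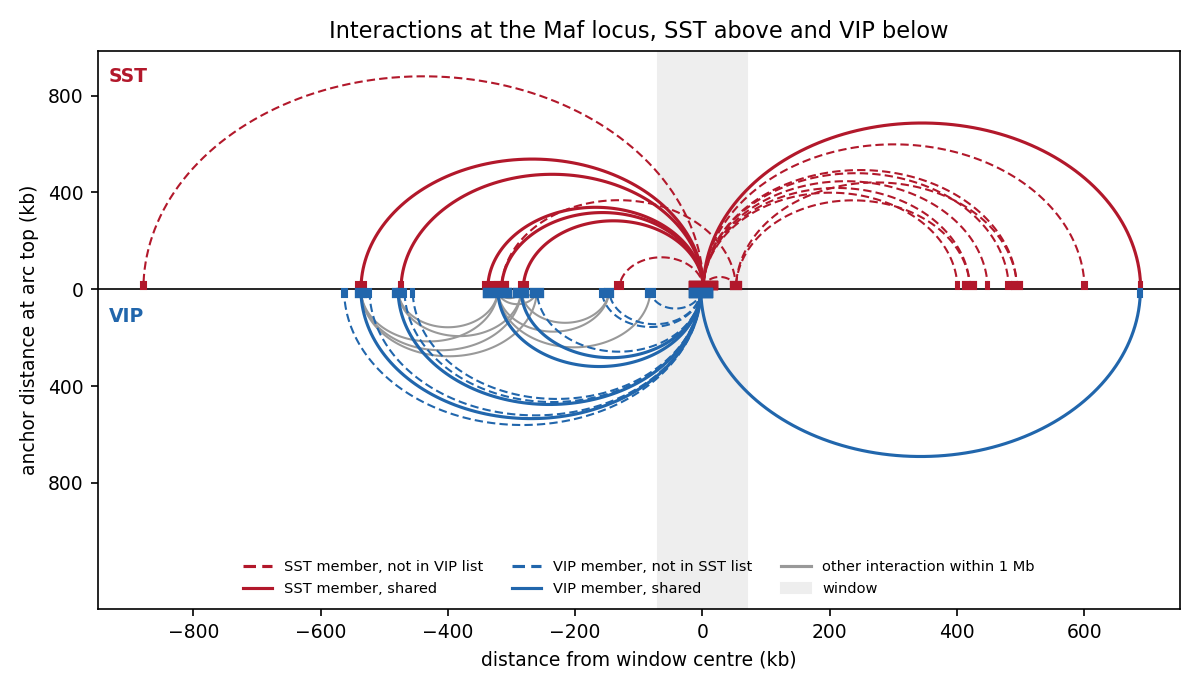
Arcs join the midpoints of linked anchors (boxes) around the Maf window (grey band), by distance from its centre in kb, with the height scaled to the anchor distance in kb; SST lies above and VIP below, shared members are solid, other members dashed and remaining interactions grey. SST arcs leave the central anchor to both sides, 7 lower and 8 higher, and VIP arcs leave it 12 times to the lower side and 1 time to the higher side.

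Of the Maf interactions, 6 of 18 in SST (33.3%, interval 13.3 to 59.0%) and 5 of 13 in VIP (38.5%, 13.9 to 68.4%) had a counterpart in the other list. Over the whole lists 21.4% of SST and 25.8% of VIP interactions had one, and both values lay within the intervals at Maf. The longest of the shared contacts spanned 687 kb in SST and 691 kb in VIP. The next ones reached to 117675542 in SST (538 kb) and 117676162 in VIP (534 kb), and to 117743770 in SST (475 kb) and 117734513 in VIP (476 kb). VIP interactions of 319 and 282 kb were the remaining shared ones in that list. Of the 12 unshared SST interactions, 10 had 1 anchor in VIP and 2 had neither, and of the 8 unshared VIP interactions all had 1 anchor in SST. In the whole lists 38.5% of unshared SST and 42.5% of unshared VIP interactions had 1 anchor in the other list. The broad Maf anchor, which overlaps between the lists, is 1 of the anchors of 15 SST and 13 VIP members, so these counts are not independent of it. When anchors within 10 kb counted as matching, 38.9% of SST and 69.2% of VIP interactions at Maf had a counterpart, and with identical coordinates 0% had one in either list. The shares of the whole lists were computed by the 1 bp rule only, so they are no background for these values.

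Contacts at Lhx6 were short and those at Maf were long. At Lhx6 the SST distances ran from 25.1 to 185 kb with a median of 70.2 kb (order-statistic interval 25.9 to 140), and 9 of 13 were of up to 100 kb. The median of the whole SST list was 178 kb (168 to 188). At Maf the SST distances ran from 51.1 to 880 kb with a median of 430 kb (339 to 493), and the VIP distances from 79.3 to 691 kb with a median of 453 kb (156 to 534). The whole VIP list had a median of 167 kb (157 to 177). The interval at Maf lay above that of the whole list in SST and overlapped it in VIP. Distances above 400 kb were found for 10 of 18 SST and 7 of 13 VIP interactions at Maf and for 0 of 13 SST interactions at Lhx6. The shares of the whole lists above 400 kb or up to 100 kb were not computed, so these counts have no background. The Lhx6 count depends on the window edge. The SST anchor ending 8.52 kb before that window had links of 438 and 415 kb that were not members. With the Lhx6 window widened by 50 kb on each side the SST median there was 96.2 kb.

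**Figure D4:**
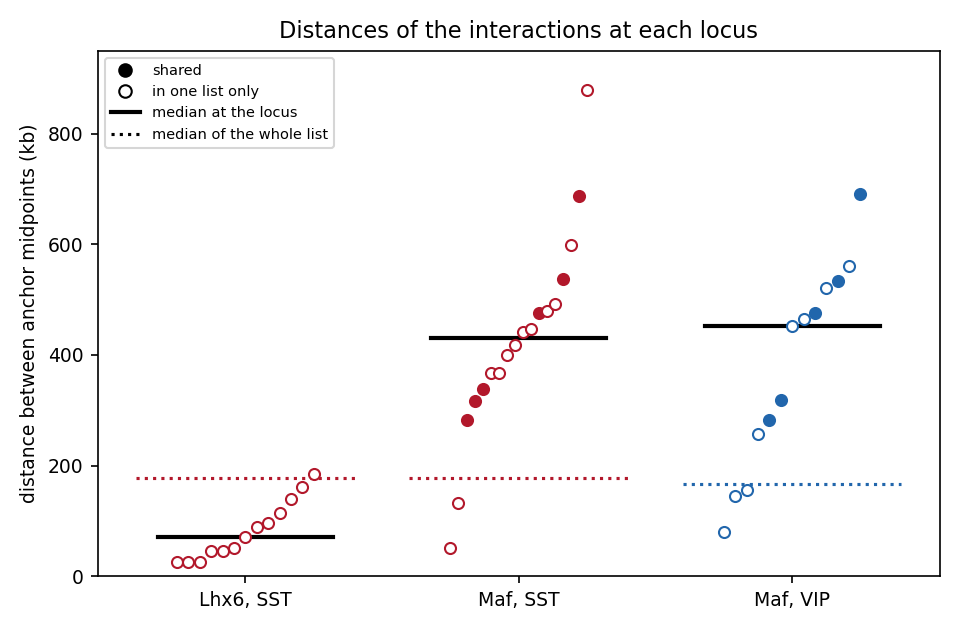
Each point is 1 interaction, by the distance between its anchor midpoints in kb (y axis) at Lhx6 in SST, Maf in SST and Maf in VIP (x axis); filled points are shared, black bars are locus medians and dotted lines whole-list medians. The Lhx6 median of 70.2 kb lies under the SST list's 178 kb, and the Maf medians of 430 and 453 kb lie above the dotted lines.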

How the data were processed

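H3K27ac HiChIP lists of SST and VIP interneuron nuclei from adult mouse cortex were used, 1 per cell type. Per the labels' protocols, INTACT-purified nuclei were crosslinked, cut with MboI, precipitated with an antibody to H3K27ac and made into libraries with Tn5. HiC-Pro and build mm9 are named in the submitters' processing notes, while the caller of the interactions, its threshold and its anchor set are not stated in the labels or files. Each deposited file has 6 columns and no header: both anchors as chromosome, start and end, with no value per interaction. Coordinates are printed as deposited, and a start may differ by 1 bp.

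Loci and motifs were chosen with earlier results of these data known. An interaction was shared when both anchors overlapped those of an interaction in the other list by 1 bp. Distances were taken between midpoints. Regions named were all anchors in a window with 6 or fewer, the shortest, longest and farthest links and the longest shared ones; the other Maf partners were named after their values were seen. Background windows were consecutive from the start of each chromosome, counted by either anchor. Intervals are exact 95% ones (Poisson, Clopper-Pearson, order statistics). The overlap step was tested on simulated lists. The work used scipy 1.17.1 for intervals and matplotlib 3.10.9 for plots, with pandas 2.3.3 under Python 3.11.15.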

Additional observations from a re-analysis of the deposited data

How the results depend on the processing

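Of the 62 values from alternatives, 37 lay within the interval of the reported value and 11 moved. A further 14 equalled a reported value that has no interval (Satb1 counts and Maf coverage). Part of the unmoved values was fixed in advance, so the tally is no measure of stability. No VIP anchor lay within 299 kb of the Lhx6 window, so the 0% shared there could not change. The limits of 20 and 200 kb removed no Lhx6 member, and that of 20 kb removed no Maf member. At Lhx6, widening the window by 50 kb on each side gave 23 SST and 0 VIP interactions, 6.24-fold with VIP set to 3 counts. Requiring both anchors in the window gave 5 and 0, 1.36-fold by the same floor. Anchors with 2 or more interactions covered 36.5% of that window. At Maf, identical anchors left 0% shared in SST and 0% in VIP, and anchors within 10 kb gave 69.2% in VIP. Interactions of up to 200 kb gave 0% in both, where the SST median was 91.7 kb and the VIP median 144 kb, which leaving out longer ones lowers by construction; the 1 SST interaction with both anchors in the window was not shared (0%). No Maf ratio was formed under these last settings, as both counts were at or under 3. Satb1 held 0 interactions under all 6 rules run, an outcome fixed in advance. The nearest anchor of either list lay 128 kb away, beyond the widening and the merging, and the other rules can only remove interactions. The cause of the other moves was not tested. The split of Maf partners by side and its alternatives were added after seeing the data. No paired analysis was possible because a single list per cell type carries nothing by replicate; for the same reason the leaving out of replicates was not run. With depth unknown, whether an unlisted contact was below detection was not tested.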
